A study of Mus musculus with 12 samples.

Results

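The genes described here encode calcium channels and channels of the transient receptor potential (TRP) family in mesenchymal cells of the mouse uterus. Membership was set by gene symbol alone: symbols beginning with Cacna1, Cacna2d, Cacnb or Cacng, numbered Trpc, Trpv and Trpm genes, and the Itpr, Ryr, Orai and Stim genes. The members described number 57 of 47729 listed genes. They fall into 10 alpha1 pore, 4 alpha2delta, 4 beta and 8 gamma subunits of voltage-gated channels, 6 TRPC, 8 TRPM and 6 TRPV channels, 3 IP3 receptors, 3 ryanodine receptors, 3 Orai channels and 2 Stim proteins.

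RNA of 12 libraries was measured by sequencing, and both groups came from healthy cycling female mice of the Pdgfrb-BAC-eGFP strain, in which a bacterial artificial chromosome carries green fluorescent protein (GFP) as a reporter of Pdgfrb. The uteri were digested with enzymes and the cells were sorted by fluorescence, with no treatment. GFPtotal (6 libraries) holds all GFP-positive cells, and GFPlow (6 libraries) holds the dimmer cells, which the series describes as stromal fibroblasts and the sample labels call GFPdim. GFPtotal therefore contains the GFPlow type of cell as well as the bright perivascular cells, and the series used the difference between the groups to infer the profile of the bright cells. All log2 fold changes below are GFPtotal minus GFPlow. The series names 12 mice, but no label ties a library to a mouse or says whether mice were pooled, so p-values reflect the spread among these libraries only. In bulk RNA of this kind, fewer cells of a type and less RNA per cell cannot be told apart.

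Voltage-gated calcium channels open when the membrane depolarises: the alpha1 subunit forms the pore, beta subunits carry it to the membrane and tune its gating, and alpha2delta subunits raise its surface level. TRP channels are cation channels gated by lipids, receptors, temperature or stretch, and IP3 and ryanodine receptors release calcium from the endoplasmic reticulum. Stim proteins sense the emptying of that store and open Orai channels. In the vessel wall and in the myometrium these routes feed contraction.

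Libraries held 12631266 to 14950639 counts in GFPtotal and 14339804 to 18425596 in GFPlow, of which the members took 15989 to 24089. The header of the count file for GFPlow 6 names an alignment file N8 where the label has S6, whereas 11 of 12 headers matched their labels. Its summed pericyte markers stood at 104 CPM, against 61.8 to 91.9 CPM in the other GFPlow libraries and 955 to 1691 CPM in GFPtotal. CPM are counts scaled to library size with TMM factors, and so comparable between libraries. GFPtotal 3, 4 and 5 stood apart from GFPtotal 1, 2 and 6: a chi-square between 2 libraries, divided by its degrees of freedom, was 19.5 to 24.7 within 1, 2 and 6, 34.0 to 43.9 within 3, 4 and 5, and 90.2 to 139 across them. Mitochondrial genes took 32.4% to 40.5% of counts in GFPtotal 3, 4 and 5 and 45.3% to 49.0% in 1, 2 and 6. In GFPlow they took 35.1% to 45.7%. Genes detected numbered 20316 to 20915 in GFPtotal 3, 4 and 5 and 19613 to 19840 in 1, 2 and 6. The part of these differences in the split was not tested. Pdgfrb, the gene behind the reporter, averaged 114 ± 36.0 CPM in GFPtotal against 65.1 ± 15.02 CPM in the dim cells (SD over 6 libraries), a log2 fold change of 0.81 with an SE of 0.21 (edgeR adjusted p = 0.0305). All 7 tested pericyte markers and 4 of 8 tested smooth muscle markers were called higher in GFPtotal, 1 of 8 fibroblast markers was, and Cldn5 (endothelium), Msln and Upk3b (mesothelium) and Hba-a1 and Hbb-bs (red cells) had 0 counts in every library.

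Of the 57 channel genes, 32 had enough counts to be tested, and 2 of these changed at an adjusted p below 0.05. That is 6.25% of the tested members, against a background of 5.41% of the 14523 genes tested. Cacnb2 was higher in GFPtotal (3.12% of members, background 4.55%), and Cacna1e was lower (3.12%, background 0.854%). In the same 2 genes the ranges of the 2 groups of 6 libraries did not overlap, where 2.86% of all tested genes had GFPtotal wholly above and 0.806% wholly below. The median log2 fold change was 0.052 over the tested members and -0.000599 over all tested genes, with 17 members above 0 and 15 below. A further 9 members had an unadjusted p below 0.05 without being called. The share of all tested genes below that unadjusted threshold is not at hand, so this number has no background to be read against. Leaving out GFPlow 6 gave the same 2 calls, and so did leaving out GFPtotal 3, 4 and 5, which added Cacna2d3 and took the background to 1.88% in all, 1.56% higher and 0.318% lower.

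**Figure D1:**
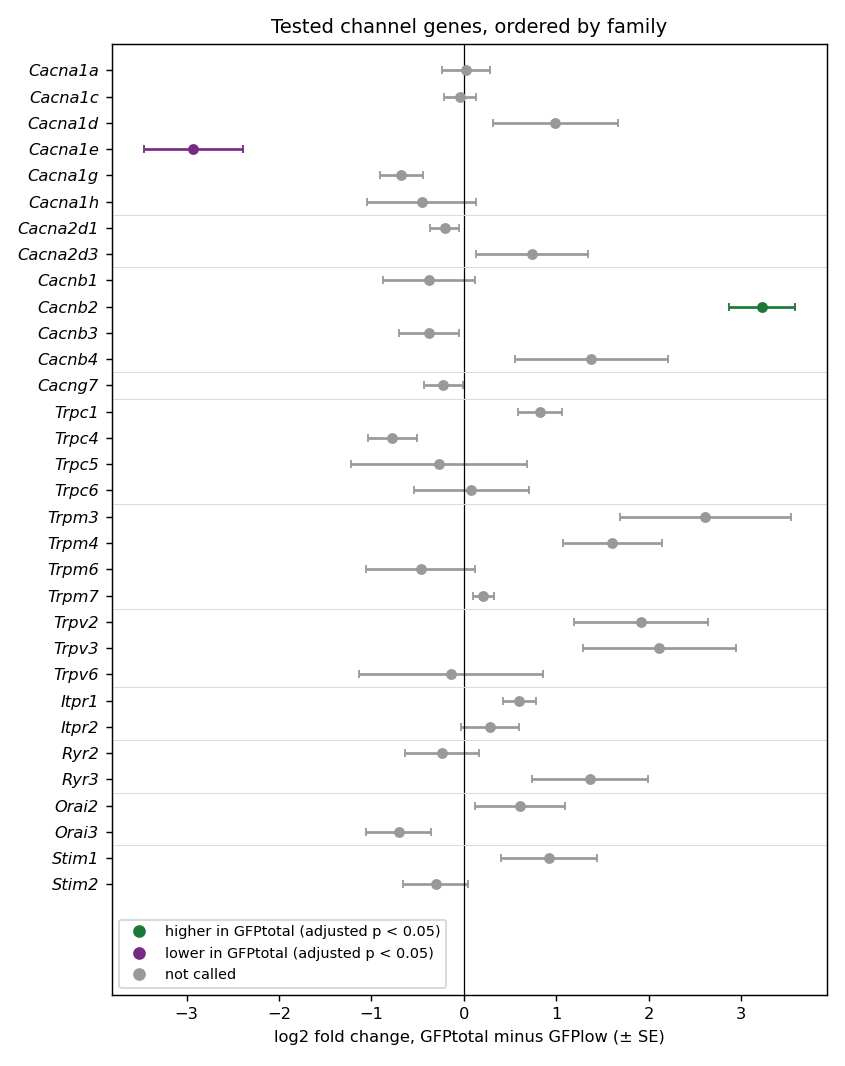
Log2 fold change (GFPtotal minus GFPlow, x axis) with its standard error for the 32 tested channel genes, ordered by family. Cacnb2 at 3.23 was called higher and Cacna1e at -2.93 lower, and the other 30 genes, in grey, were not called.

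The largest change among the called members was in Cacnb2 (ENSMUSG00000057914, chr2:14603088-14987908 on GRCm38), which encodes a beta subunit that partners the L-type pores of heart and smooth muscle. The deposited counts are summed over all its exons, so they do not say from which start its transcripts came. RefSeq lists 2 of its starts within the gene body with very different base composition, and the 250 bases before each are shown with those of Cacna1e because these genes carried the largest called differences in each direction. Trpc6 is shown because its mean level per length was the highest of the tested members in both groups. All 4 windows are on GRCm38.p6, 5′ to 3′ along the gene. Capitals mark a CArG box, the motif of serum response factor.
Cacnb2 start 1: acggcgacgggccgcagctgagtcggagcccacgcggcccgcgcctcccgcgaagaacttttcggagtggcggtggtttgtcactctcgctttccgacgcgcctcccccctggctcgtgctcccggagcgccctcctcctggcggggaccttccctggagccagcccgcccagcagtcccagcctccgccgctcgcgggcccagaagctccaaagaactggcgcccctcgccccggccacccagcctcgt
Cacnb2 start 2: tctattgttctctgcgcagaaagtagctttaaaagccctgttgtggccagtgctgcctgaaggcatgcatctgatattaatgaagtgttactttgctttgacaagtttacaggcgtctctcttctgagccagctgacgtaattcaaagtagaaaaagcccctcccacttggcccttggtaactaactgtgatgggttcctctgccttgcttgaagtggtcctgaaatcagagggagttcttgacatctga
Cacna1e: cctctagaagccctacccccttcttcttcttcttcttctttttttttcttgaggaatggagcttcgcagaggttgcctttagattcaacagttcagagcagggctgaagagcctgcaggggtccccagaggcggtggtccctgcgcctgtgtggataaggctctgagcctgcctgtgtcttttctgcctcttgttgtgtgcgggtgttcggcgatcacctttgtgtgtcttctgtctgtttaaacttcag
Trpc6: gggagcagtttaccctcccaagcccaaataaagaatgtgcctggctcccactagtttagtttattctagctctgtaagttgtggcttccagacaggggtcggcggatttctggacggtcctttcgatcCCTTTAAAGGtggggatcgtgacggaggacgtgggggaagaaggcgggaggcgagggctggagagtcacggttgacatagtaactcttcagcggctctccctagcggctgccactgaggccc
The first Cacnb2 window (chr2:14604056-14604305, plus strand) has a GC content of 73.2%, and the second (chr2:14823842-14824091, plus strand) of 46.0%. The Cacna1e window (chr1:154725921-154726170, minus strand) has 52.0% GC, and the Trpc6 window (chr9:8543892-8544141, plus strand) 56.4%. The Cacna1e window also lies within the gene body, since the counted gene begins upstream at chr1:154884501. Whether its transcripts began at this RefSeq start was not tested. RefSeq entries matched 48 of the 57 members with 61 promoters. A CArG box stood in 2 of these 61 windows (3.28%), against 482 of 32851 windows of 250 bases over all genes (1.47%). The box in Trpc6 begins at position -122 from the start, and the other is in Trpv1, which was not tested. TGGGAA, searched on both strands, stood in 12 of the 61 windows (19.7%), against 7094 of all windows (21.6%). Neither motif's letters occur in the 2 Cacnb2 windows or the Cacna1e window shown.

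Among the pore-forming alpha1 genes, 6 of 10 were tested, 1 fell and 5 were not called. Cacna1e (ENSMUSG00000004110, chr1:154390731-154884501), the R-type pore, ranged from 3.36 to 15.8 CPM in GFPtotal with a median of 6.86, and from 25.3 to 178 CPM in GFPlow with a median of 36.7. No library of GFPtotal reached the lowest of GFPlow, and GFPlow 1 stood far above the other GFPlow libraries, which ended at 54.1 CPM. The means were 7.84 ± 4.27 and 59.7 ± 58.8 CPM (SD, n = 6 each), with a log2 fold change of -2.93 (SE 0.53, edgeR adjusted p = 0.00521). Without GFPlow 1 the log2 fold change was -2.20 (SE 0.35, adjusted p = 0.0014), and without GFPlow 6 it was -3.09 (adjusted p = 0.00536). Without GFPtotal 3, 4 and 5 it was -3.02 (adjusted p = 0.0437). In GFPlow 1 other genes were also high: the endothelial cadherin Cdh5 stood at 39.6 CPM there and at 5.05 to 24.0 CPM in the other GFPlow libraries. The summed endothelial markers did not single out that library. They stood at 60.2 CPM in GFPlow 1, 58.2 CPM in GFPlow 3 and 39.6 to 42.7 CPM in the rest of GFPlow. Cdh5 was most of the sum in GFPlow 1 but not in GFPlow 3. The chloride channel Ano1, a marker of interstitial cells of Cajal, stood at 129.5 CPM there and at 0.81 to 21.6 CPM in the others. Summed with Kit and Etv1, the other markers listed for these cells, it came to 165.6 CPM in GFPlow 1. That sum was 55.7 to 98.7 CPM in the other GFPlow libraries. Ano1 was thus most of the sum in GFPlow 1 only, and the other markers of the list did not follow it. Cdh5, 1 of 4 tested endothelial markers, was called lower in GFPtotal like Cacna1e (log2 fold change -1.67, adjusted p = 0.0374), while the summed endothelial markers overlapped (33.3 to 59.6 CPM in GFPtotal against 39.6 to 60.2 CPM in GFPlow). Summed neuron markers were also mostly lower in GFPtotal, at 0.466 to 9.35 CPM against 8.09 to 20.96 CPM. Most of that sum was the vesicle protein Syt1 (log2 fold change -2.27, adjusted p = 0.0938), which stood at 7.27 CPM in GFPlow 1, the lowest of GFPlow. Whether cells of any of these types had a part in the differences of Cacna1e and Cacna1b was not tested.

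Cacna1b, the N-type pore, stayed below the count filter with 13 counts over GFPtotal and 269 over GFPlow, and its libraries did not overlap either. It lay between 0 and 0.405 CPM in GFPtotal and between 0.440 and 5.38 CPM in GFPlow. With the filter it received no test on all 12 libraries, so it is given by these values. With no filter it was called lower on all 12 (log2 fold change -3.935, SE 0.916, edgeR adjusted p = 0.0118). The shares of genes without overlap given above cover tested genes only, and none is at hand for genes below the filter. When any single GFPtotal library or GFPlow 3 was left out, it passed the filter and was called lower (log2 fold change -4.38 to -3.66, edgeR adjusted p = 0.0084 to 0.0311). Its counts let it pass only through GFPlow, the group where it is high, so these calls are no independent support for its direction. With GFPtotal 3, 4 and 5 left out together it was at -3.26 and not called (adjusted p = 0.137).

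Cacna1c, the L-type pore of smooth muscle, had the highest CPM of the pore genes in both groups. It ranged from 115 to 192 CPM with a median of 134 in GFPtotal, and from 98.4 to 190.5 CPM with a median of 150.1 in GFPlow. The groups overlapped almost fully (log2 fold change -0.04, SE 0.17, edgeR adjusted p = 0.929). Cacna1a, the P/Q-type pore, likewise overlapped, at 15.4 to 27.8 CPM (median 23.2) and 11.5 to 33.8 CPM (median 21.4), and differed by 0.02 on the log2 scale (adjusted p = 0.976, SE 0.26). Of its exonic bases 3.81% lie under an antisense gene, and strand was not used in the counting.

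Cacna1g, a low-voltage T-type pore, ranged from 21.9 to 52.6 CPM (median 41.1) in GFPtotal and from 35.7 to 86.4 CPM (median 64.5) in GFPlow. In 5 of the 6 GFPlow libraries it lay above every GFPtotal library, and GFPlow 1 was the exception. Its log2 fold change of -0.68 (SE 0.24) did not pass (edgeR adjusted p = 0.111), but did without GFPlow 1 (-0.80, SE 0.22, adjusted p = 0.0451). Cacna1d, a second L-type pore, stood at 1.603 to 9.08 CPM in GFPtotal and at 0.652 to 1.65 CPM in 5 GFPlow libraries, with 9.36 CPM in GFPlow 1 (log2 fold change 0.99, SE 0.68, adjusted p = 0.458). Without GFPlow 1 it was called higher (2.23, SE 0.55, adjusted p = 0.0267). The T-type pore Cacna1h differed by -0.46 on the log2 scale (adjusted p = 0.732, SE 0.59). Summed over the 10 pore genes, GFPtotal held 167 to 281 CPM and GFPlow 254 to 430.4 CPM.

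**Figure D2:**
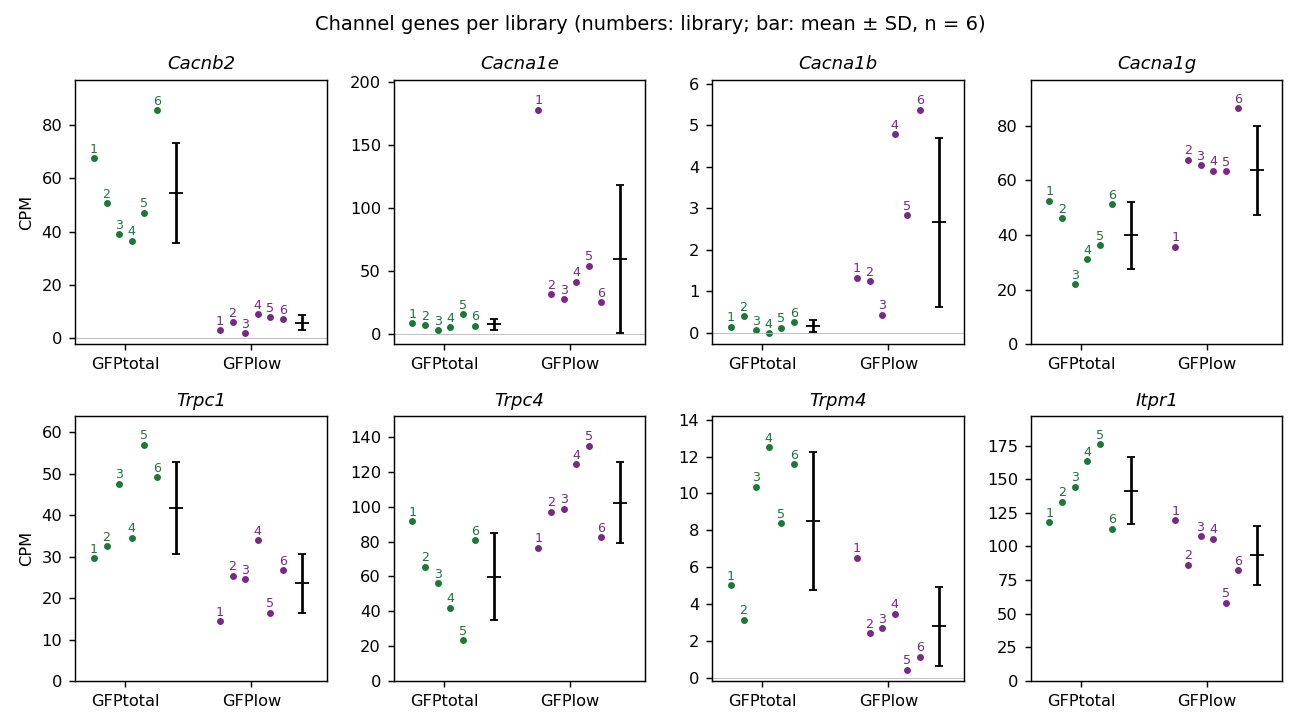
CPM (y axis, linear) of 8 channel genes in each library, with library numbers beside the points and bars for the mean ± SD of 6. Cacnb2 (36.6 to 85.5 against 1.95 to 9.03 CPM) lies wholly higher in GFPtotal, Cacna1e and Cacna1b wholly lower, and the other 5 genes overlap between groups.

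All 4 beta subunit genes were tested, and Cacnb2 alone was called. It ranged from 36.6 to 85.5 CPM in GFPtotal with a median of 48.8, and from 1.95 to 9.03 CPM in GFPlow with a median of 6.496. Its lowest GFPtotal library, number 4, stood above every GFPlow library. The means were 54.4 ± 18.8 and 5.79 ± 2.79 CPM, a ratio of 9.39 (log2 fold change 3.23, SE 0.36, edgeR adjusted p = 4.08e-05). It was called under all 20 alternative settings, at 3.05 to 3.53, including 3.29 without GFPlow 6 and 3.53 without GFPtotal 3, 4 and 5. Of its exonic bases 7.32% lie under antisense genes. GFPtotal 3, 4 and 5 had the 3 lowest GFPtotal levels of Cacnb2 (36.6 to 47.0 CPM), and their summed pericyte markers, at 1333 to 1691 CPM, were the 3 highest. Summed fibroblast markers were higher in GFPtotal without overlap (23560 to 40108 CPM against 15505 to 23397 CPM), and stood at 37686 to 40108 CPM in GFPtotal 1, 2 and 6 and at 23560 to 27524 CPM in 3, 4 and 5. Pericyte, smooth muscle and fibroblast markers thus all moved in the direction of Cacnb2 between the groups, and their part in its difference was not tested.

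Cacnb3, a beta subunit found in many tissues, overlapped between groups at 7.13 to 17.5 CPM (median 10.4) and 6.49 to 23.4 CPM (median 15.3), with a log2 fold change of -0.38 (SE 0.33, edgeR adjusted p = 0.581). Cacnb4 stood at 1.86 to 13.0 CPM in GFPtotal and at 0.252 to 1.71 CPM in 5 GFPlow libraries, with 10.6 CPM in GFPlow 1. It was not called with all libraries (log2 fold change 1.38, SE 0.83, adjusted p = 0.387) and was called without GFPlow 1 (3.11, SE 0.64, adjusted p = 0.00946). Its exons overlap an antisense gene over 16.0% of their length. Cacnb1 had a log2 fold change of -0.38 (adjusted p = 0.74). The beta subunits together made up 60.7 to 104 CPM of GFPtotal libraries and 16.6 to 35.6 CPM in GFPlow. That gap was Cacnb2 itself: without it the other 3 summed to 12.0 to 31.6 CPM and 11.8 to 29.7 CPM, which overlapped.

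Of the alpha2delta genes, Cacna2d1 was the most abundant channel gene in GFPlow by CPM. It ranged from 164 to 259 CPM (median 229.5) in GFPtotal and from 173 to 286 CPM (median 264) in GFPlow, with a log2 fold change of -0.21 (SE 0.16, edgeR adjusted p = 0.516). GFPlow 6, the library with the unmatched header, was the lowest of its group. Cacna2d3 split GFPtotal: libraries 1, 2 and 6 held 21.7, 14.2 and 27.1 CPM, and libraries 3, 4 and 5 held 3.00, 2.03 and 2.00 CPM. GFPlow lay between, at 3.06 to 9.72 CPM, and the log2 fold change was 0.74 (SE 0.60, adjusted p = 0.553). Without GFPtotal 3, 4 and 5, a setting chosen after the data were seen, it was called higher (1.57, SE 0.36, adjusted p = 0.0297), where 1.56% of 15703 genes were.

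Of the gamma subunits only Cacng7 was tested. This protein is better known as an auxiliary subunit of glutamate receptors. It stood at 19.2 to 35.4 CPM (median 28.2) in GFPtotal and at 24.1 to 43.6 CPM (median 30.7) in GFPlow and overlapped between groups (log2 fold change -0.22, SE 0.21, edgeR adjusted p = 0.615). Cacng4, untested, had 18 counts over GFPtotal and 220 over GFPlow. A single library, GFPlow 5, held 14.8 CPM of it, while every other library of both groups was below 1 CPM.

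Trpc6, a channel opened by diacylglycerol downstream of receptors that activate phospholipase C, split the GFPtotal libraries. In GFPtotal 1, 2 and 6 it stood at 202, 202 and 215 CPM, and in GFPtotal 3, 4 and 5 at 29.4, 19.5 and 27.9 CPM. The GFPlow libraries lay between these clusters, at 57.7 to 167 CPM with a median of 101. The means of 116 ± 99.2 and 109.6 ± 39.1 CPM gave a log2 fold change of 0.08 (SE 0.62, edgeR adjusted p = 0.964). Its sign turned with the setting, from -0.59 with limma-voom to 0.89 without GFPtotal 3, 4 and 5, and it was called in none (lowest adjusted p = 0.0683).

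Trpc1, which joins other TRPC subunits in mixed channels, ranged from 29.6 to 57.0 CPM (median 41.1) in GFPtotal and from 14.5 to 34.0 CPM (median 25.0) in GFPlow. Only GFPlow 4, at 34.0 CPM, reached into the range of GFPtotal. Its log2 fold change of 0.82 (SE 0.24) did not pass (edgeR adjusted p = 0.0549). It did without GFPtotal 1 (0.90, adjusted p = 0.0383), GFPtotal 2 (0.88, adjusted p = 0.046) or GFPlow 4 (0.95, adjusted p = 0.0394), and adjusted p values over all settings ran from 0.0263 to 0.377.

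Trpc4, a channel opened through Gq- and Gi-coupled receptors, pointed the other way. It ranged from 23.3 to 91.7 CPM (median 60.9) in GFPtotal and from 76.6 to 135 CPM (median 98.0) in GFPlow, with overlap from GFPtotal 1 and 6. The log2 fold change was -0.77 (SE 0.27, edgeR adjusted p = 0.107). It was called without GFPtotal 1 (-0.94, adjusted p = 0.0463) and when libraries were scaled by their totals alone (-0.90, adjusted p = 0.0195). Its relative Trpc5 was low, with a range of 0 to 8.73 CPM over GFPtotal and of 1.64 to 6.55 CPM over GFPlow (log2 fold change -0.27, SE 0.95, adjusted p = 0.917). In GFPtotal 3, 4 and 5 it was at 0.715, 0 and 0 CPM, and in GFPtotal 1, 2 and 6 at 5.72, 6.07 and 8.73 CPM.

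**Figure D3:**
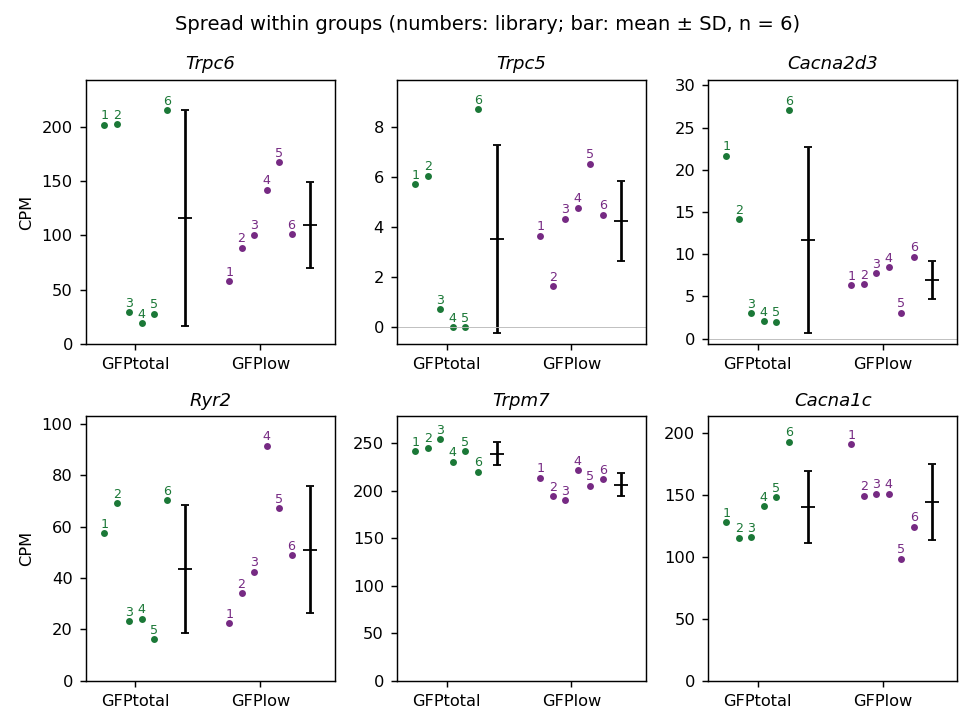
CPM (y axis, linear) of 6 channel genes in each library, chosen after their values were seen, with library numbers and bars for the mean ± SD of 6. Trpc6, Trpc5, Cacna2d3 and Ryr2 are lower in GFPtotal 3, 4 and 5 than in GFPtotal 1, 2 and 6, whereas Trpm7 and Cacna1c show no such gap.

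Among TRPM genes, Trpm7, a channel fused to a kinase and a main route of magnesium entry, was the steadiest abundant member. It ranged from 220.2 to 255 CPM (median 242) in GFPtotal and from 190.3 to 222 CPM (median 209) in GFPlow, with coefficients of variation of 5.04% and 5.84%. Only the lowest GFPtotal library, number 6, fell within the range of GFPlow. The log2 fold change of 0.21 (SE 0.11) was not called (edgeR adjusted p = 0.308). Trpm4, a sodium-conducting channel opened by intracellular calcium, had 3.16 to 12.5 CPM (median 9.37) in GFPtotal and 0.437 to 6.51 CPM (median 2.57) in GFPlow. Its log2 fold change of 1.61 (SE 0.53) had an adjusted p of 0.0930, the lowest among the 14 tested members below 10 CPM. Without GFPlow 1, the highest GFPlow library, it was called (2.05, SE 0.53, adjusted p = 0.0333).

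Trpm3, a heat- and steroid-sensitive channel, stood at 0.891 to 3.81 CPM in GFPtotal and at 0 to 1.39 CPM in GFPlow (log2 fold change 2.61, SE 0.93, edgeR adjusted p = 0.119). It was called without GFPlow 1 (3.62, SE 0.97, adjusted p = 0.04). The TRPV genes were sparse, with 0.760 to 14.9 CPM in sum per library. On the log2 scale Trpv2 differed by 1.92 (adjusted p = 0.145), Trpv3 by 2.11 (adjusted p = 0.158) and Trpv6, an epithelial calcium channel, by -0.14 (adjusted p = 0.961). Trpm6 was at -0.47 (adjusted p = 0.724). None of the tested TRPM or TRPV genes was called by edgeR with all 12 libraries. On the same libraries DESeq2 called Trpm3 (2.61, adjusted p = 0.0407) and Trpm4 (1.59, adjusted p = 0.0289) higher. Trpm3 was also called by limma-voom (3.75, adjusted p = 0.0368).

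For release from the store, Itpr1 was the main IP3 receptor gene, at 113 to 176 CPM (median 139) in GFPtotal and 58.3 to 119.6 CPM (median 96.2) in GFPlow. GFPtotal 1 and 6 and GFPlow 1 made up the overlap. Its log2 fold change of 0.60 (SE 0.18) missed the threshold (edgeR adjusted p = 0.0618) and passed without GFPlow 1 (0.68, SE 0.19, adjusted p = 0.0425). Without GFPtotal 3, 4 and 5 it was 0.36 (adjusted p = 0.522). Itpr2 overlapped fully, at 24.9 to 58.1 CPM (median 34.1) and 12.8 to 56.2 CPM (median 32.2), and differed by 0.28 on the log2 scale (adjusted p = 0.675, SE 0.31). Itpr3 was not tested, with 86 counts over GFPtotal and 16 over GFPlow.

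The cardiac ryanodine receptor gene Ryr2 was present in both groups at 16.2 to 70.2 CPM (median 40.8) and 22.5 to 91.4 CPM (median 45.6). It shared the split of GFPtotal, with 57.5, 69.1 and 70.2 CPM in libraries 1, 2 and 6 and 23.3, 24.1 and 16.2 CPM in 3, 4 and 5. The log2 fold change was -0.24 (SE 0.40, edgeR adjusted p = 0.802) and 0.34 (adjusted p = 0.748) without GFPtotal 3, 4 and 5. Ryr3 differed by 1.36 on the log2 scale (adjusted p = 0.233, SE 0.63), and 4.83% of its exonic bases lie under an antisense gene. The skeletal muscle form Ryr1 had 2 counts over GFPtotal and 70 over GFPlow.

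The genes of store-operated entry overlapped between groups throughout. Stim2, a sensor of small losses of store calcium, stood at 10.9 to 31.4 CPM (median 19.9) in GFPtotal and 9.23 to 54.1 CPM (median 22.3) in GFPlow (log2 fold change -0.30, SE 0.35, edgeR adjusted p = 0.698). Stim1 was lower in level, at means of 4.45 and 2.34 CPM (log2 fold change 0.92, SE 0.52, adjusted p = 0.345). Orai3 ranged from 3.79 to 13.6 CPM (median 5.31) in GFPtotal and from 6.61 to 15.1 CPM (median 10.3) in GFPlow, and differed by -0.71 on the log2 scale (adjusted p = 0.286, SE 0.36). Orai2 was at 0.61 (adjusted p = 0.542). Orai1, the best known pore of this pathway, was not tested, with 24 counts over GFPtotal and 47 over GFPlow.

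Per kb of exon (RPKM, CPM divided by exon length), Trpc6 had the highest mean of the tested members in both groups, at 38.3 ± 32.8 in GFPtotal and 36.2 ± 12.9 in GFPlow (SD, n = 6 each). In GFPtotal it led only in libraries 1, 2 and 6 (66.7 to 71.0 RPKM), and in 3, 4 and 5 it stood at 6.44 to 9.70 RPKM, below Trpm7 (20.4 to 22.5) and Cacna2d1 (13.2 to 18.1). In GFPtotal the next of the genes described were Trpm7 (21.1 ± 1.07), Cacna2d1 (17.6 ± 3.15), Cacng7 (11.5 ± 2.54) and Itpr1 (7.73 ± 1.36). In GFPlow they were Cacna2d1 (20.3 ± 3.34), Trpm7 (18.3 ± 1.07), Cacng7 (13.4 ± 2.96) and Trpc4 (12.7 ± 2.87). Neighbours in these upper ranks overlapped in range in both groups, except that Trpc4 in GFPlow did not overlap the next, Cacna1c at 6.80 RPKM. Cacna1c stood at 6.61 RPKM in GFPtotal, the highest of the pore genes per length there too.

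**Figure D4:**
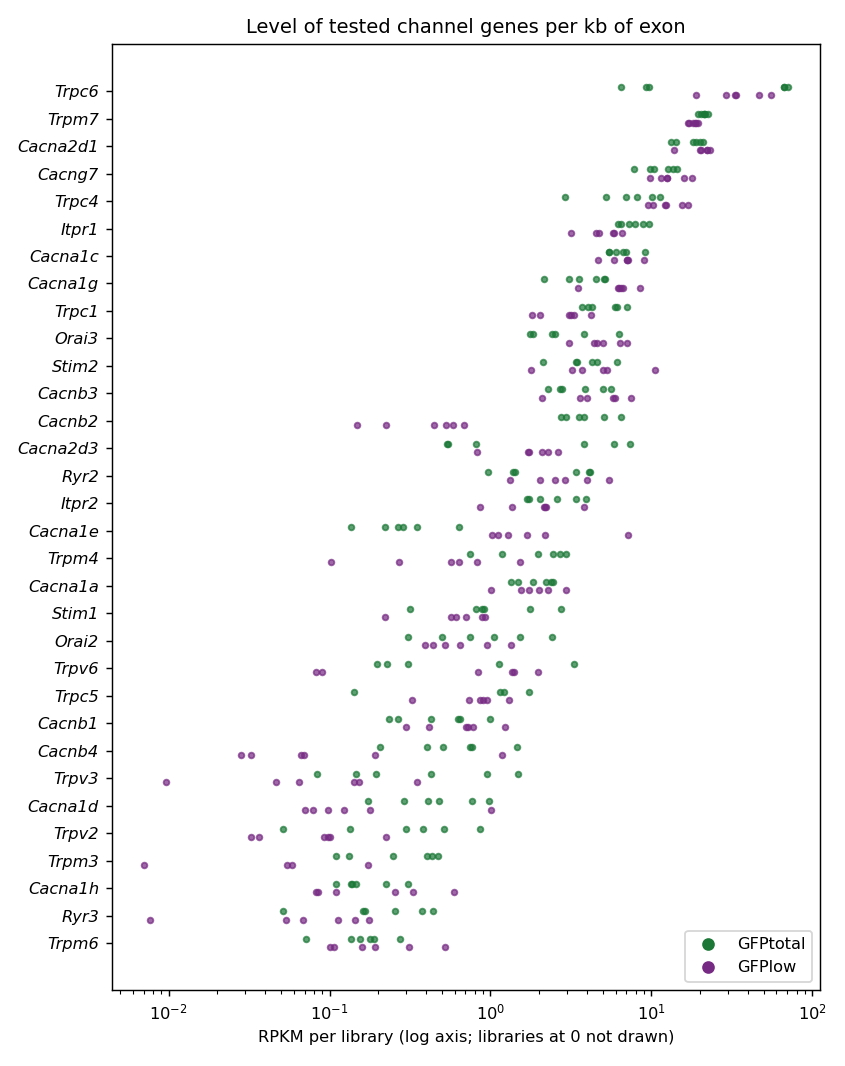
RPKM per library (x axis, log scale; libraries at 0 are not drawn) of the 32 tested channel genes, ordered by level, with a point for each GFPtotal and GFPlow library. Trpc6 spans 6.44 to 71.0 RPKM in GFPtotal, and the points of Cacnb2 and Cacna1e do not overlap between groups.

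The 25 untested members did not pass the count filter. No count was found in any library for 5 of them (Cacna1i, Cacng1, Cacng2, Cacng6 and Trpc2). The exons of Trpc2 lie wholly within other annotated genes, so its fragments would have been ambiguous. A further 9 had 1 to 10 counts over the 12 libraries (Cacna1s, Cacng3, Cacng5, Trpc7, Trpm1, Trpm2, Trpm8, Trpv1 and Trpv5). Another 9 had 11 to 110 counts (Cacna1f, Cacna2d2, Cacna2d4, Cacng8, Itpr3, Orai1, Ryr1, Trpm5 and Trpv4), and the last 2 are Cacna1b and Cacng4, above.

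Around the channels, 120 other genes of calcium handling were found in the count table, of which 87 were tested. By edgeR 12 were called higher in GFPtotal (13.8%, background 4.55%) and 0 lower (background 0.854%), DESeq2 and limma-voom also called 0 lower, and the list's median log2 fold change was 0.09. These lists were chosen with earlier results of the same data known, so the share above background is a description and not independent support. At an unadjusted p below 0.05, 22 were higher and 2 lower in the edgeR fit. No share of all tested genes is at hand for that threshold, so these numbers have no background. At the adjusted threshold, calls over all genes were also mostly higher (4.55% against 0.854% lower). By role, the calls were 1 of 9 tested pumps and exchangers, 2 of 16 store and release regulators, 2 of 5 regulators of voltage-gated channels, 2 of 15 other calcium-permeable channels, 2 of 28 calmodulin-linked genes and 3 of 14 Gq and phospholipase C genes.

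Slc8a1, the sodium-calcium exchanger of the plasma membrane, rose from 2.70 ± 1.78 CPM in GFPlow to 19.3 ± 12.6 CPM in GFPtotal (log2 fold change 2.83, SE 0.57, edgeR adjusted p = 0.00754). Pln, the inhibitor of the store's calcium pump, was higher by 2.32 (SE 0.45, adjusted p = 0.00502). Mrvi1, which links the IP3 receptor to cGMP-dependent kinase, stood at 177 ± 22.04 CPM and 79.8 ± 15.8 CPM, with no overlap (1.15, SE 0.16, adjusted p = 0.000425). Gem and Rem1, small GTPases that bind beta subunits and hold back voltage-gated channels, were higher by 2.47 (adjusted p = 0.00231) and 1.85 (adjusted p = 0.0372).

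Of the other channels, Pkd2, a polycystin related to TRP channels, was higher by 0.70 (SE 0.15, edgeR adjusted p = 0.011) and the ATP-gated P2rx7 by 1.27 (adjusted p = 0.0496). The calmodulin-dependent kinase Camk2d was higher by 0.82 (adjusted p = 0.0125) and the calmodulin-dependent phosphodiesterase Pde1a by 1.93 (adjusted p = 0.00386). The phospholipases Plcb1 (2.35, adjusted p = 0.00502), Plce1 (1.58, adjusted p = 0.0143) and Plcb4 (4.20, adjusted p = 0.0424), which make the lipid that opens Trpc6 and the IP3 that opens Itpr1, were higher too. Some of these calls depended on the setting: Pkd2 was not called when libraries were scaled by their totals (adjusted p = 0.0752). P2rx7 was not called with RLE scaling, scaling by totals, no mitochondrial genes, no filter or limma-voom (adjusted p = 0.0537 to 0.0976). Rem1 was not called with limma-voom (adjusted p = 0.0566) or no filter (adjusted p = 0.0539), nor Plcb4 with no filter (adjusted p = 0.0988). With the replicate number as a block, Gem (edgeR adjusted p = 0.0556), Rem1 (0.0723) and P2rx7 (0.141) were not called.

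Most of these calls were lost with GFPtotal 3, 4 and 5 left out. In those libraries Plce1 stood at 245, 232 and 219 CPM, against 75.6, 64.1 and 78.0 CPM in the other 3 GFPtotal libraries, while GFPlow held 33.9 to 65.6 CPM. Without the 3 libraries, and so with fewer to test, 1 of the 12 was called, Mrvi1 (log2 fold change 1.09, SE 0.19, edgeR adjusted p = 0.00371), while both called channel genes were. Calls fell over all genes too, from 4.55% to 1.56% higher and from 0.854% to 0.318% lower. The other 11 kept their direction. P2rx7 was then at 0.20 (adjusted p = 0.836) and Plce1 at 0.49 (adjusted p = 0.315), whereas Plcb1 was at 2.08 (adjusted p = 0.0649), Pln at 1.82 (0.147), Slc8a1 at 1.76 (0.205), Plcb4 at 2.88 (0.272) and Gem at 1.36 (0.0622). Single libraries also ended calls: P2rx7 was called in 3 of 12 fits with 1 library left out (adjusted p up to 0.116), Plcb4 in 3 (up to 0.09) and Rem1 in 5 (up to 0.125). Camk2d lost its call without GFPtotal 3 alone (adjusted p = 0.0503).

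**Figure D5:**
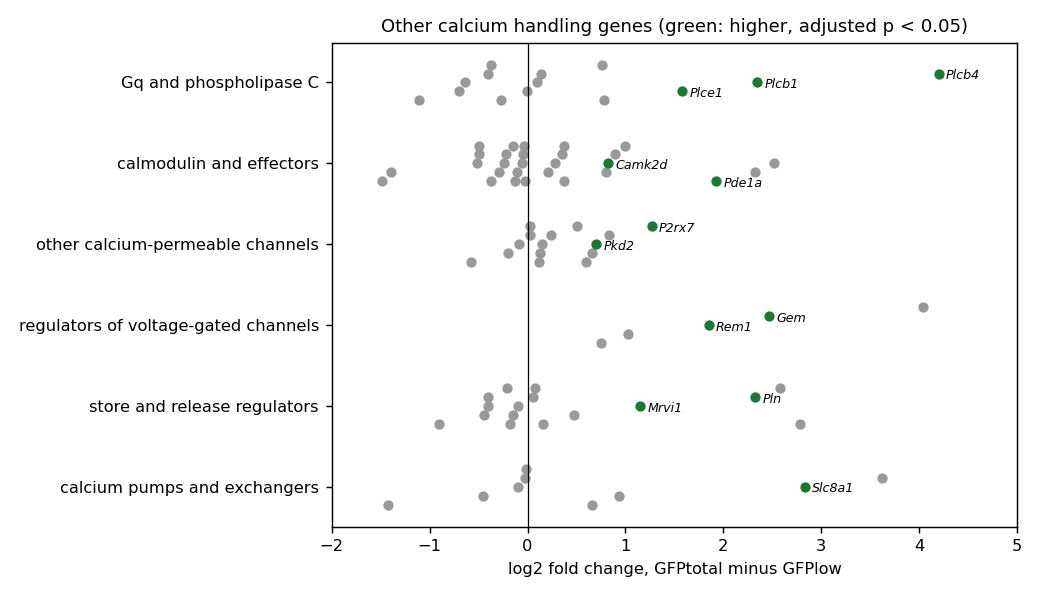
Log2 fold change (GFPtotal minus GFPlow, x axis) of the 87 tested calcium handling genes outside the channel families, 1 point per gene, by role. The 12 green points were called higher, from Pkd2 at 0.70 to Plcb4 at 4.20, and 0 were called lower.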

How the data were processed

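RNA was sequenced on an Illumina HiSeq 4000 over 4 lanes, per the labels, from 6 GFPtotal and 6 GFPlow libraries of mouse uterus. The deposited tables hold raw counts for each gene. According to the headers, the authors made these counts of paired fragments over exons with featureCounts 1.6.4 and Ensembl 84 on GRCm38, with a mapping quality of at least 10 and no use of strand. Cutadapt and SAMtools are named in the submitters' processing notes, with an aligner not given in the sources used here. Symbols came from a GENCODE M21 table (47224 of 47729 genes matched). The counts of a table of the whole series equalled those of the single files for 12 of 12 libraries, and no pair of libraries agreed within sampling noise (chi-square per degree of freedom at least 19.5).

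From the counts, edgeR 4.0.16 (R 4.3.3) kept genes by filterByExpr, scaled by TMM and tested GFPtotal minus GFPlow with the quasi-likelihood F test (robust, two-sided), fitted on all genes, with no covariate. P-values were adjusted by Benjamini-Hochberg over all 14523 genes tested, with a threshold of 0.05. The SE is the log2 fold change divided by the square root of F. The filter passes members through the group where they are high, so the 32 tested are not all members. Alternatives were RLE scaling, total library size, no mitochondrial genes (32.4% to 49.0% of counts), no filter, DESeq2 1.42.0, limma-voom 3.58.1, a replicate block, each library left out, and, added after the data were seen, GFPtotal 3, 4 and 5 left out.

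Members called, or with a mean of at least 10 CPM in a group, were to be named with full values, other tested members by value or range, untested members by counts, and every called gene of the calcium handling lists. 1 gene taken by the symbol rule is not reported here and was left out of every count of members, but kept in the fit. The members and lists were chosen with earlier results of these data known. Of 121 listed calcium handling genes 120 were found. Where genes overlap or are close relatives, reads may have been lost or exchanged at mapping, which was not tested.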

Additional observations from a re-analysis of the deposited data

Results flagged for a closer look

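The 32 tested channel genes gave 64 groups of 6 libraries, and in 7 of them the highest or lowest library stood apart from the other 5 by more than 0.625 of the group's whole range. Chance gives such a gap in about 1 in 20 groups where values are normally distributed. That was not checked for these CPM, some of which lie near 0, so the rate may differ here. GFPlow 1 held 5 of the 7 values. In that library Cacna1e stood at 177.9 CPM, with the other GFPlow libraries at 25.3 to 54.1 CPM, and Cacna1d at 9.36 CPM, with the others at 0.652 to 1.65 CPM. Cacnb4 stood there at 10.62 CPM (others 0.252 to 1.71), Trpm3 at 1.391 CPM (others 0 to 0.472) and Trpv2 at 1.012 CPM (others 0.145 to 0.452). Ano1 and Cdh5, no members, were also highest of GFPlow in this library, at 129.5 and 39.6 CPM, and their part was not tested. Each is a single marker of a longer list, and the sums of those lists are given above. Cacna2d1 was low in GFPlow 6, the library with the unmatched header, at 172.6 CPM against 248 to 286 CPM. Trpv6 was high in GFPtotal 4, at 13.07 CPM against 0 to 4.46 CPM.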

How the results depend on the processing

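The calls of Cacnb2 and Cacna1e were kept in all 20 alternatives tried, with adjusted p up to 0.000382 and 0.0437. The number of channel genes called higher, 1, was 4 with DESeq2 (Trpc1, Trpm3 and Trpm4 added), 4 with limma-voom (Itpr1, Trpc1 and Trpm3 added), 2 without GFPtotal 3, 4 and 5 (Cacna2d3 added), and 1 to 6 with 1 library left out, the 6 without GFPlow 1. The number called lower, 1, was 2 when libraries were scaled by their totals (Trpc4 added), 2 with no low-count filter (Cacna1b added) and 1 to 3 with 1 library left out, the 3 without GFPtotal 1. Of all genes, 661 were called higher and 124 lower. The numbers were 1033 and 348 with DESeq2, and 245 and 50 without GFPtotal 3, 4 and 5. Scaling by totals gave 505 and 257, limma-voom 675 and 230, and leaving out 1 library 406 to 791 higher and 61 to 179 lower. Calcium handling genes called higher fell from 12 to 1 without GFPtotal 3, 4 and 5 and were 8 to 15 with 1 library left out, and 0 were called lower in any setting. The causes were not tested.

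Signs turned for some uncalled members. Cacna1a went to -0.003406 with RLE scaling, -0.003969 without mitochondrial genes, -0.003195 with DESeq2, -0.032 without GFPtotal 3, 4 and 5, and -0.11 to 0.18 with 1 library left out. Cacna1c ran from -0.16 to 0.052, Ryr2 from -0.43 to 0.011, Stim2 from -0.48 to 0.068 and Trpc6 from -0.19 to 0.30 with 1 library left out. Trpc6 was -0.13 with scaling by totals and -0.59 with limma-voom, and Cacna2d3 -0.10 with limma-voom. Without GFPtotal 3, 4 and 5 Itpr2 was -0.23, Ryr2 0.34, Orai2 -0.50 (0.61 with all libraries) and Trpc5 0.67 (-0.27 with all libraries).

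With the replicate number as a block, 582 genes were called, and 1 channel gene was higher and 1 lower, the same 2 genes, while Trpc6 turned to -0.51. No label says whether the numbers pair the libraries. Same-numbered libraries' deviations from their group means correlated at -0.139 to 0.0892, and 2 of 6 correlated best with their own number. Such correlations cannot decide whether libraries shared a mouse, because differences among libraries of a group, as in GFPtotal, also shape them. Depth limits the 25 untested members, whose values rest on few counts.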
